A study of Mus musculus with 6 samples.

Results

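The genes described here are 9 genes of the Th17 program and of interleukin-6 and interleukin-17 reception: the cytokines Il17a and Il17f, the transcription factors Rora and Ahr, and the receptors Il23r, Ccr6, Il6ra, Il6st and Il17ra. They were chosen by gene name and each matched 1 row of the 39171 gene identifiers measured. Expression came from RNA sequencing of CD4+ T cells isolated from the spleens of premenopausal C57BL/6 mice with a magnetic CD4+ isolation kit. The Control group had 3 mice labelled untreated, and the AngII group had 3 mice given angiotensin II, the pressor peptide of the renin-angiotensin system, at 800 ng/kg/min from an osmotic minipump for 14 days. Mice of both groups were 10 weeks old at the start of the 2 weeks, each library came from 1 mouse, and the sources used here do not state whether Control mice carried a pump. By its title the study asks which CD4+ T cell pathways go with premenopausal protection against hypertension, and for these genes the comparison is whether they differ after angiotensin II.

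Th17 cells are CD4+ T cells that make the cytokines IL-17A and IL-17F. Naive cells enter this program when IL-6, bound by its receptor chain (Il6ra) and the shared signal chain gp130 (Il6st), activates STAT3 in the presence of TGF-beta, and nuclear receptors of the ROR family, RORalpha (Rora) among them, then switch on the cytokine genes together with the receptors for IL-23 and for the chemokine CCL20. Il17ra encodes the chain through which target cells sense IL-17A and IL-17F, and it is carried by many cell types. In angiotensin II hypertension, IL-17A is known for its part in vascular inflammation.

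The promoters are shown first because ROR proteins, STAT3 and the AHR, the factors named above or encoded by these genes, act through DNA motifs. RefSeq (GRCm38.p6) gave a start site sequence for 7 of the 9 genes, and the 250 bases upstream of each start were searched on both strands for AGGTCA, the core that ROR proteins recognise together with other nuclear receptors. The core was found in Il17a, Il17f, Il23r and Ccr6 (4 of 7 genes, 5 matches), and not in Rora, Il6ra or Il6st. The 7 genes had 8 promoter sequences, as Ccr6 had a further start upstream of which the core was not found. Among 32841 promoters of the same length, counted by promoter and not by gene, 14% held the core. The matches and their surroundings are printed from 5′ to 3′ on the gene's strand, with the matching bases in capitals (TGACCT is AGGTCA read on the opposite strand).
Il17a, chr1:20730758-20730817, plus strand, match starting 120 bases before the start: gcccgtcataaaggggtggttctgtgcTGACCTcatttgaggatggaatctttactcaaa
Il17f, chr1:20784296-20784355, minus strand, match starting 58 bases before a RefSeq start inside the GENCODE span of the gene: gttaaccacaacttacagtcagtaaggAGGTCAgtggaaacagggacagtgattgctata
Il23r, chr6:67492052-67492105, minus strand, match starting 229 bases before the start: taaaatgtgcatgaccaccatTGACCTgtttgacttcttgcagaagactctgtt
Il23r, chr6:67491889-67491948, minus strand, match starting 66 bases before the start: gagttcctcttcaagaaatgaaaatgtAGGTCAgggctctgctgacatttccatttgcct
Ccr6, chr17:8235874-8236016, plus strand, AGGTCA match starting 44 bases before the start: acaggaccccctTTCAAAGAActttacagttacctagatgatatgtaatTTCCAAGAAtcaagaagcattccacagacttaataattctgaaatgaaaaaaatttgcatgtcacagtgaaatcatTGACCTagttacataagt

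The other capitals in the Ccr6 stretch are 2 matches, 157 and 120 bases before the start, to TTCNNNGAA, the pattern that STAT proteins recognise. No other gene of the 7 held it, against 7.02% of all promoters. GCGTG, the core of the element bound by the AHR, was found once, in Rora (167 bases before the start), against 28.2% of all promoters. No match of one motif overlapped a match of another. Ccr6 has a further RefSeq start, upstream of which none of the 3 motifs was found. The promoters with AGGTCA were poorer in G and C (39.6% in Il23r, 41.2% in Ccr6, 46% in Il17a and 47.2% in Il17f) than those of Rora (61.2%), Il6ra (65.2%) and Il6st (66%), where the median of all promoters was 52.4%. The further Ccr6 promoter, which held no AGGTCA, was also low at 46%. A match is a run of letters, and binding was not measured.

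Defining markers of helper T cells were high in all 6 libraries. The 11 matched markers of CD4+ T cells (Cd4, Cd3e, Lck and others) summed to between 3608 and 4246 FPKM in Control and between 3625 and 3990 in AngII, with a lower mean in AngII for 11 of 11, where FPKM counts fragments per length of transcript and per total of mapped fragments. Markers of other spleen cells were also present, highest for the 12 monocyte and macrophage genes, which summed to between 1273 and 2198 FPKM in Control and between 1573 and 3064 in AngII. Depth is not recorded in the files. In genes with 1 annotated transcript longer than 2000 bases, however, the lowest values clustered at what a single fragment is worth. This worth was taken as the median within a fixed window, 0.02 to 0.045 FPKM times kb. It put the 6 libraries at about 31.3M to 34.0M fragments each, an estimate that the window itself bounds. In bulk RNA of this kind, fewer cells of a type and less RNA per cell cannot be told apart.

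No gene of the 9 was called different between AngII and Control. For Il17a, Il17f and Il23r this was fixed by the number of mice, as an exact permutation test of 3 against 3 cannot give a p below 0.1. Of the 6 that reached a mean of 1 FPKM (Rora, Ahr, Ccr6, Il6ra, Il6st and Il17ra), 0 passed the threshold of an adjusted p below 0.05 in limma, a linear model fitted over all 11842 genes at this level. The background is 0.0338% (4 of 11842 genes), and the count of 0 among 6 does not stand apart from it. At an unadjusted p under 0.05, limma counted 0 of the 6 genes and 208 of all 11842. These counts moved with the libraries: with weights per library 2 of the 6 (Il6st and Il17ra) and 2046 of all genes were under it, and without AngII replicate 2 the same 2 and 912, with 0 of the 6 past the adjusted threshold in either. The authors' deposited table, from their own test of 2 conditions named only by number, tested the same 6 genes, with p between 0.305 and 0.626 and q of 0.999918, and lists Il17a, Il17f and Il23r as not tested.

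**Figure D1:**
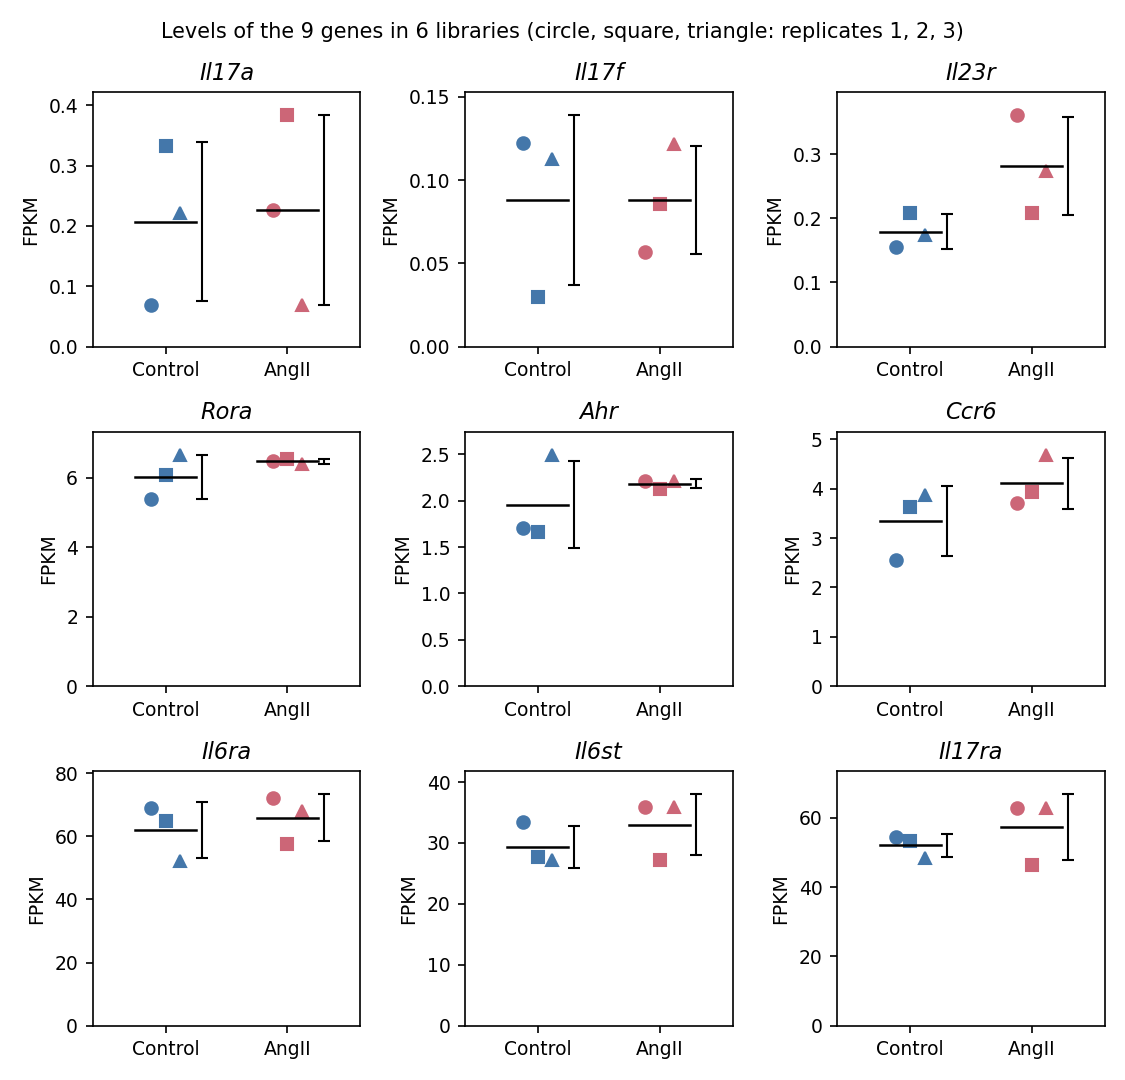
FPKM of each gene (vertical axis, from 0) in the 3 Control and the 3 AngII libraries; symbols mark replicates 1, 2 and 3, horizontal lines the group mean and bars the SD (n = 3). The groups overlap for every gene except Il23r, where the lowest AngII library (0.209) lies next to the highest Control library (0.208).

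The order of levels was the same in every library for the 6 higher genes, Il6ra above Il17ra, Il6st, Rora, Ccr6 and Ahr in turn, on the FPKM scale, which is per length. From the top gene to Ahr the mean over the 6 libraries went from 63.9 to 2.07 FPKM. The 3 lowest genes, Il23r (0.23), Il17a (0.217) and Il17f (0.0882), changed places between libraries. The range of Il17a overlapped those of Il23r and Il17f, while Il23r (0.155 to 0.361) stayed above Il17f (0.0297 to 0.122). The receptors for IL-6 and IL-17 stood among the higher genes of these cells, Il6ra above 88.9% and Il17ra above 86.9% of the genes tested, while Il17a and Il17f rested on at most 15 fragments in any library.

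IL-17A is the effector cytokine of Th17 cells, and Il17a (ENSMUSG00000025929, GRCm38 chromosome 1, 20730905 to 20734496, plus strand, 3 exons) had levels of 0.0694, 0.332 and 0.221 FPKM in the Control libraries (replicates 1, 2 and 3, in this order throughout) and 0.226, 0.384 and 0.0685 FPKM in the AngII libraries. The lowest and the highest library of the 6 were both AngII libraries, and the groups covered the same range. The Control mean was 0.207 ± 0.132 FPKM, and the AngII mean 0.226 ± 0.158 (SD, n = 3). On the log2(FPKM + 1) scale, which shrinks differences of low genes, AngII was 0.02 higher (exact permutation test, two-sided, p = 0.8, where 3 against 3 cannot go below 0.1). By the worth of a single fragment, these values stand for about 3, 13 and 9 fragments in Control and 9, 15 and 3 in AngII.

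IL-17F is the close relative of IL-17A, and its gene Il17f (ENSMUSG00000041872, chromosome 1, 20777146 to 20790617, minus strand) lies 42.6 kb beyond the end of Il17a with no annotated gene between them. It was at 0.122, 0.0297 and 0.113 FPKM in Control and at 0.0568, 0.0859 and 0.122 in AngII, or about 1 to 5 fragments per library. The means were 0.0882 ± 0.0509 and 0.0881 ± 0.0325 FPKM (SD, n = 3; exact permutation p = 1). The neighbouring cytokine genes differed in their order over the libraries. Il17f was lowest in Control replicate 2, where Il17a was at its second highest value, and Il17a was lowest in AngII replicate 3, where Il17f was near its highest. The difference Il17a minus Il17f on the log2(FPKM + 1) scale was -0.07, 0.37 and 0.13 in Control and 0.21, 0.35 and -0.07 in AngII, with a group difference of 0.02 (exact permutation test, p = 1).

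Il23r encodes the receptor chain that binds IL-23, the cytokine that sustains Th17 cells. Il23r (ENSMUSG00000049093, chromosome 6, 67422932 to 67491855, minus strand) was at 0.155, 0.208 and 0.173 FPKM in Control and at 0.361, 0.209 and 0.274 in AngII. All 3 AngII libraries were above all 3 Control libraries, and the closest pair, AngII replicate 2 and Control replicate 2, both stood at about 17 fragments. The means were 0.179 ± 0.0271 and 0.281 ± 0.0763 FPKM (SD, n = 3), a difference of 0.12 on the log2(FPKM + 1) scale with an exact permutation p of 0.1, the smallest that 3 against 3 allows. The difference was 0.07 without AngII replicate 1, and with pseudocounts of 0.1 and 5 in place of 1 it was 0.44 and 0.03. Il23r was the only one of the 9 genes whose groups did not overlap with AngII higher, and 2.84% of the 22815 genes above 0 in any library were separated in this direction. It rests on about 12 to 30 fragments per library, with 44 in all in Control and 69 in AngII. Under quantile normalization the groups overlapped (exact permutation p = 0.2), and with limma fitted to all genes without a filter Il23r did not pass (unadjusted p = 0.0574, adjusted p = 1).

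Markers of innate-like T cells and type 3 innate lymphoid cells, which also carry Il23r, were read beside it. Of the 10 matched genes, 5 had a higher mean in AngII and 5 a lower one, and their sum was 44.2 to 65.5 FPKM in Control and 42.1 to 63.7 in AngII. Sox13, a factor of IL-17-producing gamma-delta T cells, was the 1 gene of this list whose groups did not overlap, at 0.0679, 0.175 and 0.172 FPKM in Control and 0.242, 0.244 and 0.35 in AngII. It was under 1 FPKM in each library, and 2.84% of the 22815 genes above 0 in any library were separated with AngII higher. The gamma chain constant genes Tcrg-C1 (9.62 to 16.4 FPKM over the 6 libraries), Tcrg-C2 (10.2 to 16.6) and Tcrg-C4 (9.91 to 17.8) overlapped between groups. Tcrg-C2 and Tcrg-C4 had a lower mean in AngII and Tcrg-C1 a slightly higher one. The part of such cells in the Il23r values was not tested.

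RORalpha promotes the Th17 program and is also used by other lymphocytes. Rora (ENSMUSG00000032238, chromosome 9, 68653786 to 69388246, plus strand) was at 5.38, 6.07 and 6.64 FPKM in Control and at 6.47, 6.55 and 6.40 in AngII. The AngII libraries lay close together and inside the Control range. The means were 6.03 ± 0.631 and 6.47 ± 0.0722 FPKM (SD, n = 3), and the log2 fold change in limma was 0.09 (95% interval -0.12 to 0.30, adjusted p = 0.9999). This interval was the narrowest of the 6 genes tested. Leaving out Control replicate 1 brought the value to 0.025, and leaving out Control replicate 3 to 0.15, neither past the threshold.

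The AHR is a ligand-activated factor that senses dietary and microbial compounds and promotes IL-22 and IL-17 production. Ahr (ENSMUSG00000019256, chromosome 12, 35497974 to 35535038, minus strand) was at 1.71, 1.66 and 2.50 FPKM in Control and at 2.21, 2.12 and 2.21 in AngII. Control replicate 3 was above all AngII libraries and the other Control libraries below them. The means were 1.96 ± 0.469 and 2.18 ± 0.0512 FPKM (SD, n = 3; limma log2 fold change 0.12, interval -0.22 to 0.46, adjusted p = 0.9999). Without Control replicate 3 the value was 0.25, and without Control replicate 2 it was 0.05, neither past the threshold. Targets of the receptor differed in level. Cyp1a1 lay between 0.0435 and 0.104 FPKM over the 6 libraries, Cyp1b1 between 0.134 and 0.353, Ahrr, the AHR repressor, between 0.0687 and 0.233, and Nqo1 between 0.535 and 1.26. Tiparp, another AHR target, was higher, with means of 9.95 ± 1.51 FPKM (Control) and 10.1 ± 2.52 FPKM (AngII; SD, n = 3).

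The level of Ahr varied with markers of platelets and of other cells. Over the 6 libraries its log2(FPKM + 1) had a Pearson r of 0.976 with the mean of 10 megakaryocyte and platelet genes, a description over points that share their library. Among all r of the genes described here with the lists of cell type markers, it was the largest in size. Ahr also had r of 0.779 with neutrophil genes and 0.776 with dendritic cell genes. With the CD4+ T cell markers r was -0.764, and with the naive T cell genes -0.751. It was smaller in size with the remaining lists. The genes with the pattern most similar to Ahr among the 7936 with a mean of at least 5 FPKM included the platelet receptor genes Gp9 (r = 0.991) and Clec1b (r = 0.988), beside Mmd (r = 0.987), and 63 genes reached an r of 0.9. Gp9 and Clec1b belong to the 10 megakaryocyte and platelet genes, so their r is not separate from that of the list. Gp9 was at 6.01, 6.12 and 19.6 FPKM in Control and 15.0, 11.7 and 15.3 in AngII, with the same high library, Control replicate 3, as Ahr. The marker genes summed to 120 to 315 FPKM in Control and 201 to 270 in AngII, none was at 0, and 10 of 10 had a higher mean in AngII. Rora also varied with these genes (r = 0.848), and opposite to the 11 CD4+ T cell markers (r = -0.870). The part of RNA from platelets, or from other cell types, in the Ahr and Rora values was not tested.

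**Figure D2:**
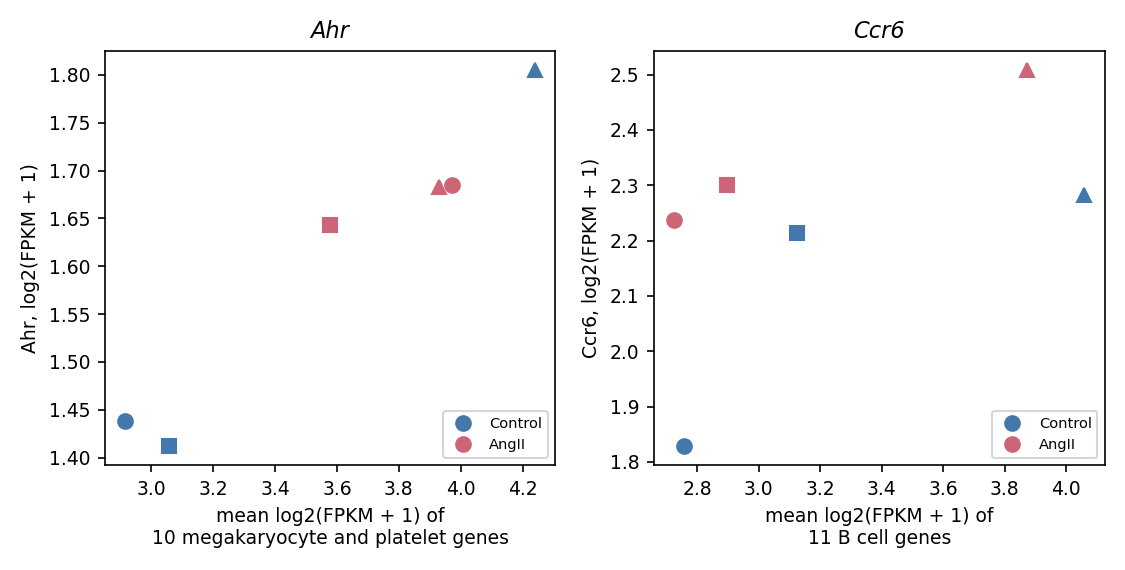
log2(FPKM + 1) of Ahr (left) against the mean of 10 megakaryocyte and platelet genes, and of Ccr6 (right) against the mean of 11 B cell genes, in the 3 Control and 3 AngII libraries (circle, square and triangle are replicates 1, 2 and 3; axes do not start at 0). Pearson r was 0.976 for Ahr with the platelet genes and 0.597 for Ccr6 with the B cell genes. The value for Ahr was the largest in size of any gene described here with any list of cell type markers. Ahr also had r of 0.779 with neutrophil genes and 0.776 with dendritic cell genes. Ccr6 had a higher r with neutrophil genes (0.772), innate-like T cell and type 3 innate lymphoid cell genes (0.704) and the platelet genes (0.694).

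CCR6 is the receptor for CCL20 and marks Th17 cells, and it is also found on B cells. Ccr6 (ENSMUSG00000040899, chromosome 17, 8236043 to 8257141, plus strand) was at 2.55, 3.64 and 3.87 FPKM in Control and at 3.71, 3.93 and 4.69 in AngII. It had the widest relative range of the 6 genes tested, 1.84 times from Control replicate 1 to AngII replicate 3, and its groups overlapped through Control replicate 3. The means were 3.35 ± 0.703 and 4.11 ± 0.514 FPKM (SD, n = 3), and the log2 fold change in limma was 0.24 (interval -0.13 to 0.61, adjusted p = 0.9999), the largest of the 6. It was 0.10 without Control replicate 1 and 0.16 without AngII replicate 3, neither past the threshold.

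B cell genes were at their highest in Control replicate 3 and AngII replicate 3, with a mean log2(FPKM + 1) of 4.06 and 3.87 against 2.73 to 3.12 in the other libraries, and 11 of 11 matched genes had a lower mean in AngII, opposite to Ccr6. The genes with the pattern most like Ccr6 over the 6 libraries were Galt (r = 0.985), Kpna2 (r = 0.979) and Limk1 (r = 0.970). Pearson r with Ccr6 was 0.597 for the B cell genes and 0.772 for neutrophil genes. It was 0.704 for the innate-like T cell and type 3 innate lymphoid cell genes, and 0.694 for the megakaryocyte and platelet genes. The neutrophil genes summed to 11.5 to 53.4 FPKM in Control and 31.5 to 95.6 in AngII, with a higher mean in AngII for 11 of 12. The part of these cell types in the Ccr6 values was not tested.

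Il6ra encodes the chain that binds IL-6 and is typical of naive and central memory T cells. Il6ra (ENSMUSG00000027947, chromosome 3, 89864059 to 89913196, minus strand) was at 68.9, 64.8 and 52.2 FPKM in Control and at 72.0, 57.5 and 68.0 in AngII. Control replicate 3 and AngII replicate 2 were the low libraries, 1 in each group. The means were 61.96 ± 8.74 and 65.9 ± 7.47 FPKM (SD, n = 3), and the log2 fold change in limma was 0.09 (interval -0.24 to 0.42, adjusted p = 0.9999). Without Control replicate 3 the sign turned (-0.03).

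Il6st encodes gp130, the signal chain shared by IL-6, LIF, oncostatin M and IL-27. Il6st (ENSMUSG00000021756, chromosome 13, 112464070 to 112510086, plus strand) was at 33.4, 27.6 and 27.2 FPKM in Control and at 35.8, 27.2 and 36.0 in AngII. AngII replicates 1 and 3 were the highest of the 6 libraries, and AngII replicate 2 lay with the lowest. The means were 29.4 ± 3.45 and 33.0 ± 5.002 FPKM (SD, n = 3; limma log2 fold change 0.16, interval -0.18 to 0.49, adjusted p = 0.9999). The value was 0.09 without AngII replicate 1 or AngII replicate 3, 0.11 without Control replicate 3 and 0.25 without Control replicate 1. It was 0.29 without AngII replicate 2 (unadjusted p = 0.0386, limma adjusted p = 0.632), and 0.30 with libraries weighted by their agreement with the rest, where it did not pass after adjustment either (unadjusted p = 0.0111, limma adjusted p = 0.275). The ratio of Il6ra to Il6st FPKM averaged 2.11 ± 0.217 (Control) and 2.00 ± 0.112 (AngII; SD, n = 3), and the log2 difference between the chains changed by -0.07 from Control to AngII (exact permutation test, p = 0.6, where 3 against 3 cannot go below 0.1).

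Il17ra (ENSMUSG00000002897, chromosome 6, 120463247 to 120487559, plus strand) was at 54.5, 53.5 and 48.3 FPKM in Control and at 62.9, 46.5 and 62.9 in AngII. The AngII group held both the highest levels and the lowest, so that its spread was wider than that of Control. The means were 52.1 ± 3.30 and 57.4 ± 9.44 FPKM (SD, n = 3), and the log2 fold change in limma was 0.13 (interval -0.20 to 0.45, adjusted p = 0.9999). Without AngII replicate 2 it was 0.27, without AngII replicate 1 0.06 and without AngII replicate 3 0.06, none past the threshold (without AngII replicate 2, unadjusted p = 0.0112 and limma adjusted p = 0.632). Il17rc encodes the partner chain of Il17ra in the receptor for IL-17A and IL-17F. It was at 0.0666, 0.0746 and 0.137 FPKM in Control and 0.143, 0.0756 and 0.0865 in AngII, far below Il17ra in each library.

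**Figure D3:**
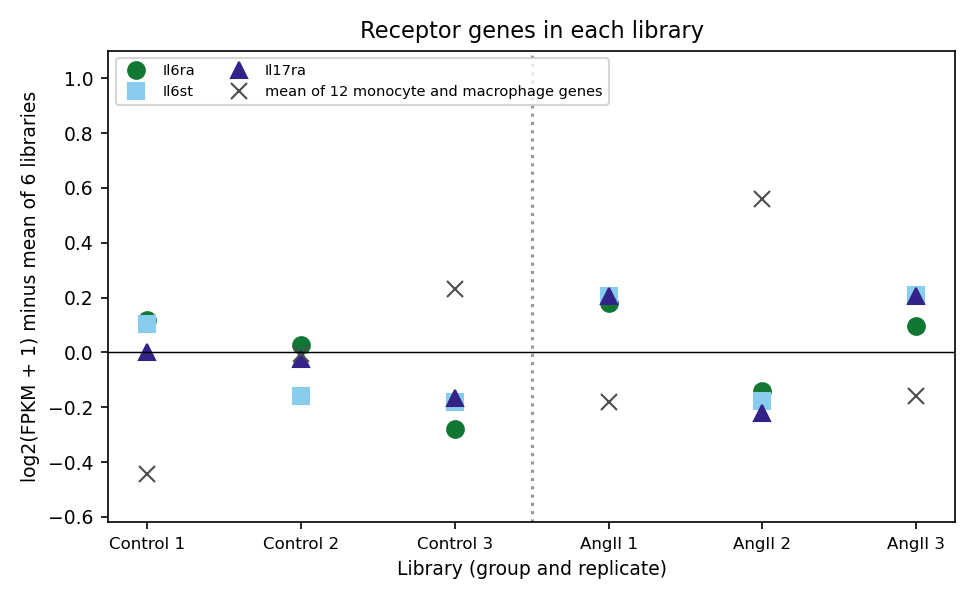
log2(FPKM + 1) of Il6ra, Il6st and Il17ra in each library, minus the gene's mean over the 6 libraries, beside the mean of 12 monocyte and macrophage genes on the same scale; the dotted line parts Control from AngII. The 3 receptor genes are low together in Control replicate 3 and AngII replicate 2, the libraries with the highest mean of these 12 genes. Il6st is also low in Control replicate 2.

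The levels of the receptor genes of IL-6 and IL-17 varied together from library to library. Over the 6 libraries, Pearson r of log2(FPKM + 1) was 0.915 for Il17ra and Il6st, 0.850 for Il17ra and Il6ra and 0.828 for Il6ra and Il6st. Many other genes shared this pattern: 480 of 7935 reached an r of 0.9 with Il17ra and 313 with Il6ra. The closest were Klhl24 (r = 0.998), Zfp825 (r = 0.993) and Slc39a3 (r = 0.992) for Il17ra, and Arid1b (r = 0.999), Zfp740 (r = 0.990) and Slc38a2 (r = 0.990) for Il6ra. The libraries share their scaling, and these values describe the libraries.

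The mean of the monocyte and macrophage markers varied opposite to the receptors. Not every marker followed the mean, as Adgre1 and Ly6c2 were highest in Control replicate 2. The mean log2(FPKM + 1) of the 12 markers was 6.15, 6.59 and 6.83 in Control and 6.41, 7.15 and 6.43 in AngII, with r of -0.786 for Il6ra, -0.758 for Il6st and -0.736 for Il17ra over the 6 libraries. Of the 12 markers, 10 had a higher mean in AngII, and none was at 0. Il17a went the other way, with r of 0.783 on its few fragments. For Il6ra, r was also -0.816 with 11 effector and memory T cell genes, -0.795 with 10 dendritic cell genes and 0.737 with 9 naive T cell genes. The effector and memory genes summed to 909 to 1336 FPKM in Control and 939 to 1055 in AngII (2 of 11 with a higher mean in AngII), the dendritic cell genes to 398 to 1213 and 527 to 811 (2 of 10), and the naive genes to 2607 to 3272 and 2723 to 2983 (4 of 9). The part of these cells in the receptor levels was not tested.

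**Figure D4:**
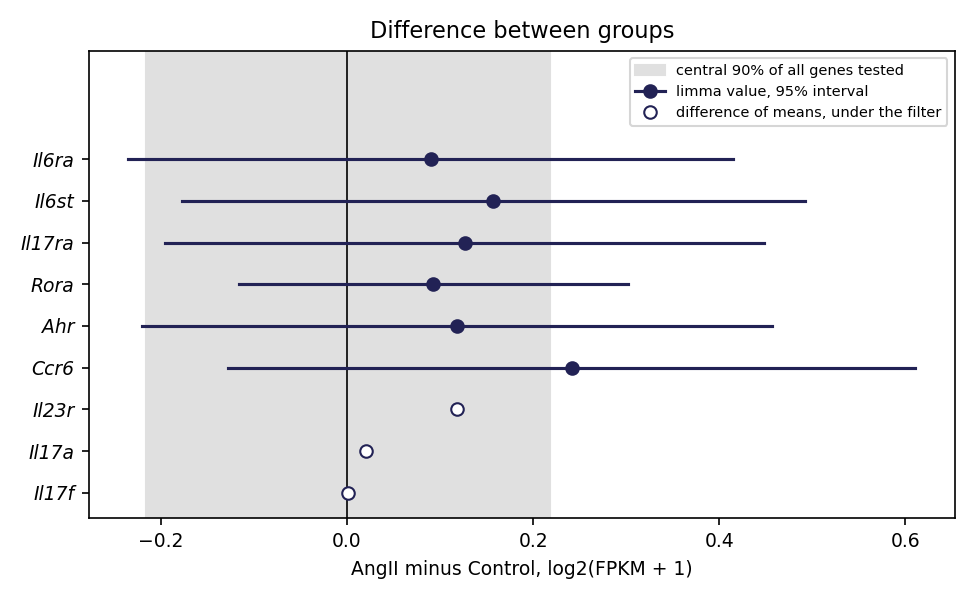
Difference between AngII and Control on the log2(FPKM + 1) scale for the 9 genes; filled points are limma values with 95% intervals, open points are differences of means for the 3 genes under 1 FPKM, and the grey band holds the central 90% of all genes tested (-0.22 to 0.22). Every interval crosses 0, and only Ccr6 (0.24) lies outside the band.

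Set side by side, the 6 genes tested all had log2 fold changes above 0, between 0.09 and 0.24 with a median of 0.12, where 48.0% of all genes tested were above 0 and the median was -0.004. Among the 6, 0 had groups that did not overlap, against 5.84% of all genes tested. The 6 values are not independent, as the receptor genes varied together. With Control replicate 3 left out, 5 of the 6 were above 0. The median CV over the 6 libraries was 13.3% for these genes and 10.0% for all genes tested.

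Other genes of the pathway gave values on both sides of 0. Of 118 further genes in 9 lists of Th17 regulators, IL-6 signalling, IL-17 reception, AHR biology and opposing T cell factors, 117 were matched and 88 reached the level for testing. Of these 0 passed in limma, in either direction, 35 had log2 fold changes above 0 and 53 below, and 2 reached an unadjusted p under 0.05, against the 208 of 11842 genes given above. Their median was -0.02. By list, the medians ran from -0.28 (3 Th17 cytokines tested) to 0.01 (10 genes of IL-17 receptor signalling).

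**Figure D5:**
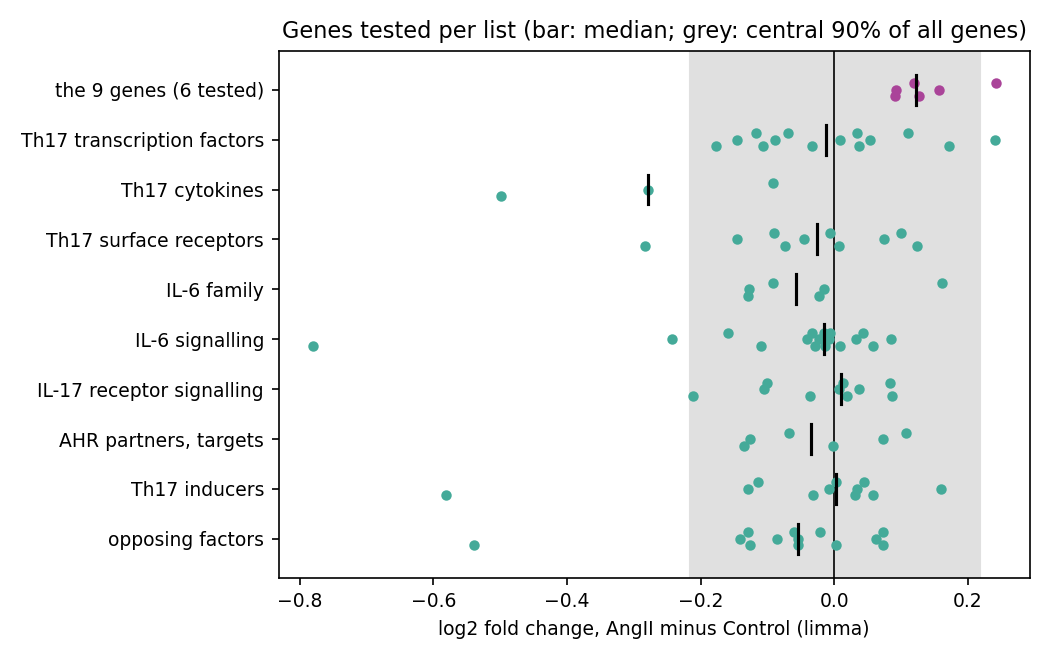
limma log2 fold change (AngII minus Control) of every gene tested in each list; bars are list medians and the grey band holds the central 90% of all genes tested. The 6 genes tested of the 9 lie to the right of 0. The pathway lists lie on both sides of it, except the 3 Th17 cytokine genes tested (Il21, Il10 and Lif), which are all below 0.

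Among transcription factors of the program (14 tested, 7 above 0 and 7 below), STAT3, which carries the IL-6 signal to the nucleus, had Stat3 means of 62.1 ± 5.82 FPKM (Control) and 60.5 ± 1.22 FPKM (AngII; SD, n = 3). The pioneer factors Batf and Irf4 had log2 fold changes of -0.09 and -0.18, and Maf 0.03. Cebpb (0.24), Runx1 (0.17) and Nfkbiz (-0.11) had the smallest p of this list with Irf4, and no factor of this list passed.

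Of 10 matched Th17 cytokine genes, 3 reached 1 FPKM, and all had log2 fold changes below 0. Il21, made by Th17 and follicular helper cells, was at 3.03, 0.554 and 2.50 FPKM in Control and 0.903, 2.36 and 0.919 in AngII, high in Control replicates 1 and 3 and AngII replicate 2 (log2 fold change -0.28). Its value was -0.016 without Control replicate 1 and -0.70 without Control replicate 2, and neither passed. Il10 was at 4.34, 4.14 and 7.07 FPKM in Control and 2.38, 5.18 and 2.75 in AngII (-0.50, interval -1.20 to 0.20), and Lif had -0.09. Il22, under the filter, stayed between 0.0564 and 0.18 FPKM, with a higher mean in AngII (0.149) than in Control (0.0904). Of the 10 matched genes, 2 had a higher mean in AngII and 6 a lower one. Il24 and Il25 were listed at 0 in all 6 libraries.

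Receptors that mark or sustain Th17 cells (10 tested, 4 above 0) included Il12rb1, the partner chain of Il23r, with means of 7.25 ± 0.629 FPKM (Control) and 6.83 ± 0.396 FPKM (AngII; SD, n = 3). Il21r had a log2 fold change of -0.09, Cxcr6 -0.28 and Klrb1f -0.15. Il1r1, the IL-1 receptor, was under the filter, at 0.428, 0.642 and 0.775 FPKM in Control and 0.736, 0.860 and 0.879 in AngII, so that only AngII replicate 1 lay inside the Control range.

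In IL-6 signalling (17 genes tested, 5 above 0), Socs3, the STAT3-induced inhibitor that docks on gp130, had the smallest p of all 88 genes. Socs3 was at 35.3, 32.8 and 34.9 FPKM in Control and 28.0, 29.5 and 29.1 in AngII, with the groups apart. Of all genes tested, 5.84% had groups apart in either direction. Its limma log2 fold change was -0.24 (interval -0.38 to -0.11, unadjusted p = 0.00493), which did not pass after adjustment over all genes (adjusted p = 0.9999). Fos (-0.78, interval -2.25 to 0.68), Pim1 (-0.11) and the kinase gene Jak1 (-0.03) did not pass either.

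Ligands and sister receptors of the IL-6 family (6 tested, 1 above 0) were low or close between groups. Il6 itself was at 0.0682, 0.0664 and 0.421 FPKM in Control and 0.0323, 0.168 and 0.257 in AngII. Il27ra, which pairs with gp130 for IL-27, averaged 61.0 ± 3.91 FPKM (Control) and 55.7 ± 1.40 FPKM (AngII; SD, n = 3; limma value -0.13, interval -0.29 to 0.03). Clcf1 had 0.16, Osm -0.13 and Lif -0.09, none past the threshold, and the sign of Osm turned without AngII replicate 2 (0.16).

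Downstream of the IL-17 receptor (10 tested, 6 above 0), Zc3h12a, the RNase that degrades inflammatory transcripts such as that of IL-6, had a log2 fold change of -0.21 (interval -0.47 to 0.04), Arid5a, which protects such transcripts, 0.08 with the groups apart, Traf3 0.09 and Usp25 0.04. Among partners and targets of the AHR (6 tested, 2 above 0), the dimerisation partner Arnt had 0.07, the co-chaperone gene Ptges3 -0.13 and Ncoa7 0.11. No gene of either list passed, and groups were apart in either direction for 5.84% of all genes tested.

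Among inducers of the program (11 tested, 6 above 0), the TGF-beta receptor gene Tgfbr1 was at 12.63, 12.12 and 12.04 FPKM in Control and 13.8, 13.5 and 14.1 in AngII, with the groups apart (log2 fold change 0.16, interval 0.03 to 0.29, unadjusted p = 0.0271). It did not pass in limma (adjusted p = 0.9999). Tgfb1 had -0.01, Smad3 -0.13, Sgk1, the salt-sensing kinase that favours Th17 cells, 0.06 with the groups apart, and Il1b -0.58 (interval -1.77 to 0.61). Separation of the groups, as for Tgfbr1 and Sgk1, was found in 5.84% of all genes tested, counting either direction. Il1b went to -1.12 without Control replicate 1 (unadjusted p = 0.00657, limma adjusted p = 0.9997) and to -0.13 without Control replicate 2. Il23a, the chain specific to IL-23, was at or below 0.0245 FPKM in each library.

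Factors that oppose Th17 differentiation (13 tested, 4 above 0) also did not pass. Foxp3, the regulatory T cell factor, had a log2 fold change of -0.09 (interval -0.27 to 0.10). Ifng, the Th1 cytokine, had -0.54 (interval -1.17 to 0.09), Stat5a -0.13, Gfi1 -0.14 and Eomes -0.13.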

How the data were processed

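For each library the authors deposited FPKM values by Ensembl gene and, per the file headers, a table of p-values and q-values from their own comparison of conditions named by number, from which no direction was taken. Per the submitters' processing notes, reads were handled with Trimmomatic 0.32, TopHat2 2.1.1 and Cuffdiff on GRCm38.p3. The sources used here do not name the program behind the library files or the annotation release. Positions came from GENCODE M21 (GRCm38), which held a symbol for 37605 of the 39171 identifiers, and promoters from RefSeq.

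FPKM is not a count, so values were tested as log2(FPKM + 1), without further scaling, keeping genes whose mean reached 1 FPKM, with limma 3.58.1 in R 4.3.3 (intensity trend, two-sided, Benjamini-Hochberg adjustment over all genes). Fold changes on this scale understate those of low genes. The code was tested on simulated data. Genes under the filter and 4 within-library differences were compared by exact permutation tests with scipy 1.17.1; the adjusted p of each of the 4 differences was 1. Fragments per gene were estimated from the longest transcript and are approximate. The members and lists were chosen with earlier results of these data known. All 9 genes were named, with the genes with the smallest p of each list (at most 4), a fixed set of regulators, and the 3 genes most like each of the 4 members of widest range. Il24, Il25, Il23a, Cyp1a1, Cyp1b1, Nqo1, Tiparp, Sox13, Tcrg-C1, Tcrg-C2, Tcrg-C4 and Gp9 were named after their values were seen. Results of some genes that the rule names are not reported here. Alternatives were other pseudocounts (0.1, 5), filters (none, 5), scalings, eBayes settings, weights per library, a block for the replicate number, and leaving out each library.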

Additional observations from a re-analysis of the deposited data

How the results depend on the processing

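No member and no pathway gene passed in limma under any alternative run (lowest limma adjusted p 0.275 among the members and the 38 other named pathway genes). The lowest exact permutation p of a within-library difference was 0.2, for Il17a minus Il23r without AngII replicate 2. The exact tests could not pass 0.05 in any run: the smallest possible p was 0.1 for 3 against 3, 0.2 with 1 library left out and 0.25 for 3 pairs. Of 139 values of the 9 members under alternatives, 133 kept direction and side of the threshold and 6 turned the sign. In the exact tests of Il17a, Il17f and Il23r the side of the threshold could not change. With 1 library left out, Il17a ranged from -0.071 to 0.12, Il17f from -0.039 to 0.023, Il6ra from -0.027 to 0.18, Stat3 from -0.071 to 0.041, Jak1 from -0.14 to 0.043, Maf from -0.089 to 0.18, Usp25 from -0.029 to 0.089, Tgfb1 from -0.039 to 0.025, Osm from -0.29 to 0.16 and Ptges3 from -0.22 to 0.020. In the same way Il17a minus Il17f ranged from -0.088 to 0.14, Il6ra minus Il6st from -0.13 to 0.0098 and Rora minus Ahr from -0.091 to 0.050. Signs also turned with median-of-ratios scaling (Il17f -0.00017), a pseudocount of 5 (Rora minus Ahr 0.010), quantile normalization (Rora minus Ahr 0.0013, Jak1 0.050, Tgfb1 0.017), equal-sum scaling (Stat3 0.034, Jak1 0.040, Tgfb1 0.061) and library weights (Stat3 0.016, Osm 0.19, Tgfb1 0.033). The cause was not tested. With the replicate number as a block, 0 members passed and 3 genes of all passed. Libraries of the same number deviated with r of -0.080, -0.023 and -0.035, and none was closest to its own number, so the numbers were not taken as pairs. Among all genes, 4 passed in the reported fit and 3 to 9 under alternatives, with 7 of 22815 without a filter, 8 without Control replicate 1, 7 without Control replicate 3 and 9 without AngII replicate 3. Il17a, Il17f and Il23r rest on about 1 to 30 fragments per library, and 3 against 3 mice cannot give an exact p below 0.1.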
